A study of Arabidopsis thaliana with 16 samples.

Results

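The comparison described here is the response to glucose in germinating seeds that also received abscisic acid (ABA). It rests on 8 of the 16 wild-type libraries of the study: 4 from seeds given 5 µM ABA with 60 mM glucose, and 4 from seeds given 5 µM ABA with no glucose. All 8 came from whole seeds of Arabidopsis thaliana, ecotype Col-0, with no transgene or mutation named in the labels. Seeds were imbibed for 3 days at 4 °C, held in constant light at 22 °C on MS medium of reduced strength, moved to liquid medium with the compounds at 24 hours, and harvested 6 hours later, at 30 hours. The other 8 libraries, 4 with no added compound (control) and 4 with 60 mM glucose and no ABA, entered the fit and serve for comparison. The labels call the 4 libraries of a group biological replicates and do not say whether they came from separate seed lots, so p-values measure the spread between these libraries. No group with another sugar or osmolyte at 60 mM is named in the labels, so effects of glucose as a sugar and as an osmolyte cannot be told apart.

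ABA is the hormone that holds seeds back from germination. It binds receptors of the PYR/PYL family, which then block protein phosphatases 2C of clade A; this frees SnRK2 kinases to activate bZIP transcription factors such as ABI5 and the ABFs. These factors bind ABA-responsive elements in promoters, short motifs around the letters ACGT, and switch on genes of desiccation tolerance, among them those of late embryogenesis abundant (LEA) proteins. Sugars are sensed by separate routes, which include hexokinase, trehalose 6-phosphate and the kinase SnRK1, and sugar supply is known to repress a set of starvation genes. In seeds, ABA and glucose are usually described as acting together against germination at high sugar, while low amounts of sugar are known to relieve part of the ABA inhibition.

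Library totals ran from 9360552 to 17794685 estimated counts in the 8 libraries, and 3 counts, the bound set on a reading of 0, corresponded to 0.171 to 0.325 CPM (counts scaled to a common library size, CPM, after TMM); such limits cover counting error only. Transcripts of 6 genes that mark seed reserves and their use, among them CRA1, OLEO1 and isocitrate lyase, summed to 28223 to 30784 CPM with ABA and 28665 to 29513 CPM with ABA plus glucose. This sum hides single genes. CRA1 and OLEO1, with means of 1770 and 338 CPM with ABA, were a small part of it. Both were called lower in the comparison below, as 2 of the 6 genes, or 3 without ABA replicate 3. The sums of 3 endosperm-associated genes were 1135 to 1550 and 1214 to 1385 CPM, and those of 5 seedling greening genes were 1695 to 2004 and 1735 to 1815 CPM, so these sums overlapped between the groups. One library stood apart. In a principal component analysis of the 8 libraries the first component took 34.2% of the variance and placed ABA replicate 3 at -44.3, with the other 7 libraries between -0.598 and 12. Its level lay outside the range of the 15 other libraries for 6394 of 17083 genes, against 1619 to 2630 genes for the other ABA libraries and 832 to 1442 for those with ABA plus glucose. ABA replicate 3 was also the library with the lowest total and the highest LEA sum, 29625 CPM against 20763 to 23233 CPM in the other ABA libraries. The comparison was therefore repeated without it.

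Glucose changed the transcripts of ABA-treated seeds more often downward than upward. Of 17083 genes tested, 553 were lower with ABA plus glucose than with ABA (3.24%) and 198 were higher (1.16%), at an adjusted p under 0.05 in edgeR's quasi-likelihood test; such genes are said below to be called, or to have fallen or risen. The count of rises depended on the fit: with the 8 libraries alone 99 genes rose and 430 fell of 16707 tested, and after correcting for GC content and length 309 rose and 596 fell. The changes were mostly small. The median log2 fold change was -0.52 for the genes that fell and 0.37 for those that rose, with quartiles of -0.74 and -0.37, and of 0.29 and 0.47. Only 69 falls and 8 rises reached 2-fold, while the median over all genes tested was 0.00. No library of one group overlapped the other group for 509 of the 553 falls and 174 of the 198 rises, against 5.65% and 4.15% of all genes tested. Summed over the 553 genes, the share of all CPM was 5.9, 5.57, 6.6 and 5.6% in ABA replicates 1 to 4 and 3.91, 3.81, 3.63 and 3.59% with ABA plus glucose. The control libraries held 1.68 to 1.83%, so the level with both compounds lay between those of the ABA and the control libraries. The 198 genes that rose summed to 1.59 to 1.63% with ABA, 2.07 to 2.12% with ABA plus glucose and 2.52 to 2.62% in the control libraries, which also placed the combined treatment between the other groups. Because the genes were chosen by this contrast, these sums describe them and test nothing.

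**Figure D1:**
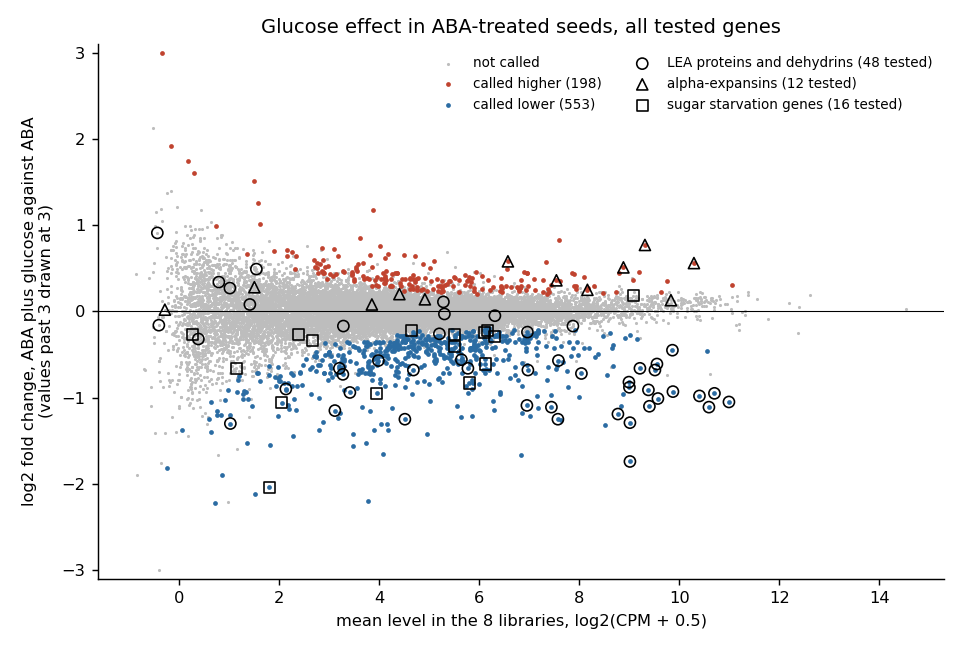
Log2 fold change of ABA plus glucose against ABA (vertical axis) against the mean level in the 8 libraries (horizontal axis, log2 of CPM plus 0.5) for the 17083 genes tested, with 553 called lower in blue and 198 called higher in red. Open circles mark 48 LEA and dehydrin genes, most of them below 0, triangles 12 alpha-expansins, all above 0, and squares 16 sugar starvation genes.

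ABA replicate 3 was then left out. The fit without it called 243 genes higher (1.41%) and 628 lower (3.64%) of 17258 tested. Of the 198 rises 154 were called again, of the 553 falls 500 were called again, 89 rises and 128 falls were new, and 0 of the 751 called genes changed sign. A rise was the less stable kind of call. In all 8 fits that each left out 1 of the 8 libraries, 354 of the 553 falls and 70 of the 198 rises were called every time. The genes given with values below were called in each of these 8 fits unless stated. Of the 102 such genes, 92 moved by at most 0.1 on the log2 scale without ABA replicate 3, and the largest move was 0.28; 2 lost their call, PYL8 and AT4G13710, and ABI4 gained one. For 65 of the 69 lists, the counts of rises and falls without it differed by at most 1 from those with all libraries. Not every list is counted below, and where a count is given that changed, the changed count stands beside it.

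**Figure D2:**
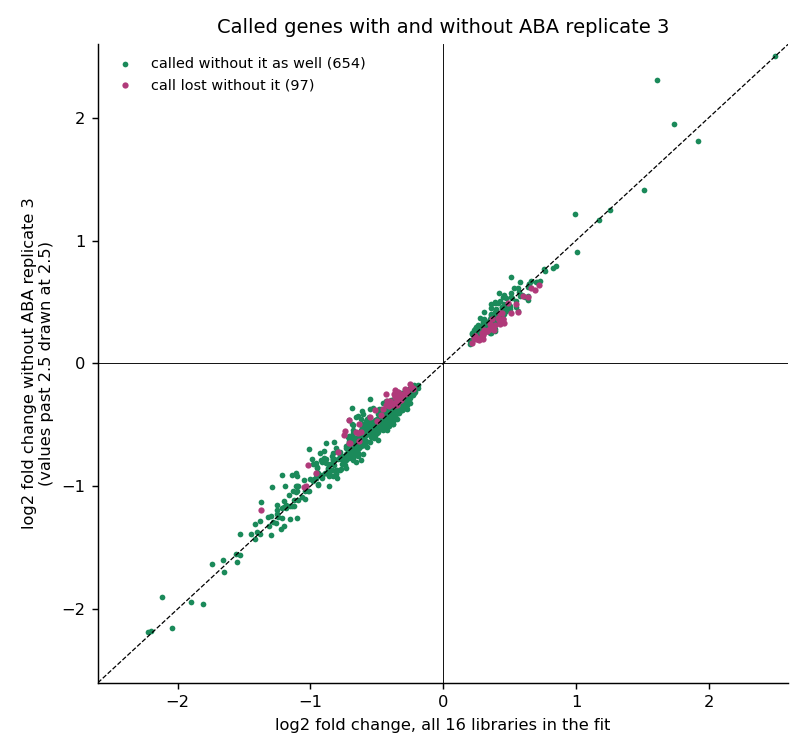
Log2 fold change of each of the 751 called genes with all libraries (horizontal axis) and without ABA replicate 3 (vertical axis); the dashed line marks equal values. Green points, 154 rises and 500 falls, were called without that library too, and purple points lost their call, values past 2.5 are drawn at 2.5, and all points lie in the lower left or upper right part.

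The promoters of the genes that fell held ABA-responsive motifs at a higher share than those of all genes tested, a property that the choice of genes did not use. Promoters were taken as the 250 bases before to the first 50 bases of each gene in the RefSeq annotation of TAIR10.1, matched by locus identifier, and both strands were searched. The letters ACGTG, shared by most ABA-responsive elements and by the G-box, occurred in 60.2% of 553 promoters of genes that fell (95% Wilson interval 56.1 to 64.2%), in 30.8% of 195 promoters of genes that rose (24.7 to 37.6%), and in 27.7% of 16970 promoters of genes tested. The longer form ACGTGTC was found in 28, 3.59 and 5.49% of these promoters, and ACGTGGC in 21.2, 3.08 and 5.19%. The G-box CACGTG, which contains ACGTG, was found in 33.5, 10.8 and 9.46%. TATCCA, a motif of sugar-repressed promoters in cereals, was present in 25, 15.4 and 16.5%, while the telo box AACCCTA, common in genes of protein synthesis, was present in 3.44, 8.72 and 8.16%. The other motifs searched were GATAAG, the I box, present in 23.1, 10.3 and 14.8%, and the site II-like GGCCCA, present in 12.3, 15.4 and 20.7%. A higher share among the falls was thus not particular to TATCCA and the ACGTG forms. With the 250 bases before the gene alone, the shares for ACGTG were 53, 26.7 and 23.5%. A match is a description of the letters and not a binding site.

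The promoters below belong to genes on which the following results turn: 6 that fell, from LEA genes to the starvation gene ASN1, and 3 that rose. Each is the 250 bases before the gene in RefSeq's TAIR10.1, read 5′ to 3′ on the strand of the gene, with ACGTG or its reverse complement in capitals; CACGTG holds the motif on both strands. They lie at chr5:26519448-26519697, minus strand (RAB18), chr3:5310989-5311238, minus strand (LEA29), chr1:19619474-19619723, plus strand (LEA7), chr3:1499097-1499346, minus strand (AT3G05260), chr2:15207637-15207886, minus strand (ABI5), chr3:17441432-17441681, minus strand (ASN1), chr1:26141476-26141725, plus strand (ATEXPA1), chr1:9259182-9259431, plus strand (ATEXPA10) and chr1:22824164-22824413, plus strand (GPT2).
RAB18: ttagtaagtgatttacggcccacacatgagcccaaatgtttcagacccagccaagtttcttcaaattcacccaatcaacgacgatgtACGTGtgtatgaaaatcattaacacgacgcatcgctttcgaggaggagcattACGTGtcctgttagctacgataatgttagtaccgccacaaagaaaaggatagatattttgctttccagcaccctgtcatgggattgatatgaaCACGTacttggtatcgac
LEA29: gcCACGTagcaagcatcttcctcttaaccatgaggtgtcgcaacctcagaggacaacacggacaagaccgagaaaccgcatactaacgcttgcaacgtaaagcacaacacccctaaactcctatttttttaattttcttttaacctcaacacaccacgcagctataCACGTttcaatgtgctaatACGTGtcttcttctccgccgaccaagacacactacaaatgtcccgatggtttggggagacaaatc
LEA7: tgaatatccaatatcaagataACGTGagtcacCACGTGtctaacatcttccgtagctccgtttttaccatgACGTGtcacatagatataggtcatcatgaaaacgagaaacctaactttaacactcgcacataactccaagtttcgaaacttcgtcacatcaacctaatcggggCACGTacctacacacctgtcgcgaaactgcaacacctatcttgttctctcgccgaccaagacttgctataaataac
AT3G05260: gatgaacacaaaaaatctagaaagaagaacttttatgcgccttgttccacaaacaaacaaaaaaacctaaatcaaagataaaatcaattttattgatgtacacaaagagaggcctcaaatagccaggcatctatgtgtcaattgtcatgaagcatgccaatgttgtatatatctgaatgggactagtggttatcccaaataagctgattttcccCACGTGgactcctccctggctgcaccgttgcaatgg
ABI5: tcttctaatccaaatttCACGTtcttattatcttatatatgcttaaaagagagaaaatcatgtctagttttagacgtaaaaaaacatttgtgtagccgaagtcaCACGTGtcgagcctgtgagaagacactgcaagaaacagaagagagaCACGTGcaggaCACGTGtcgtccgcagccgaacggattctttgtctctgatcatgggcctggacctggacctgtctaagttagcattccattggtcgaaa
ASN1: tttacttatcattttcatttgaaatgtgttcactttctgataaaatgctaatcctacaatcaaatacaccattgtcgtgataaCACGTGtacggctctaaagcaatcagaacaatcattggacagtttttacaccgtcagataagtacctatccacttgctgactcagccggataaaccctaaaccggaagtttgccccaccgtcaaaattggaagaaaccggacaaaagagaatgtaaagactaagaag
ATEXPA1: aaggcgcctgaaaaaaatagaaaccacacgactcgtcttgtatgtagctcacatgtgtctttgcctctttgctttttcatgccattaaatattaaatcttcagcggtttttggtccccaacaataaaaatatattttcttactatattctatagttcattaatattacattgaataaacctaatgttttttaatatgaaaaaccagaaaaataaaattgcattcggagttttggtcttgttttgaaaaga
ATEXPA10: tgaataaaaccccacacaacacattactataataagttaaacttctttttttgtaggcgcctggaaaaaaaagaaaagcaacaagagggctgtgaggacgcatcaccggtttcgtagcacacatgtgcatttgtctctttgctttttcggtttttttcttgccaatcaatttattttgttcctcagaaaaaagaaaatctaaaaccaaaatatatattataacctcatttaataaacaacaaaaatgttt
GPT2: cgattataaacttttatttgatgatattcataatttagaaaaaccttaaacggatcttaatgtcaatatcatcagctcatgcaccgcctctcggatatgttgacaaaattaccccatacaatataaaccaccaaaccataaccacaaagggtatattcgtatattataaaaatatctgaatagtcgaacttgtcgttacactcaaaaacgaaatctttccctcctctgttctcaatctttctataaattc
RAB18 and LEA29 have the motif at 3 places each, LEA7 and ABI5 at 4 places each, and AT3G05260 and ASN1 at 1 place each, a G-box. In AT3G05260 this place starts 36 bases before the gene. The windows of ATEXPA1, ATEXPA10 and GPT2, all of which rose, hold 0 matches.

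Late embryogenesis abundant proteins, which protect cells during drying, formed the list with the most genes called. Of 65 members 48 passed the filter on low counts, and 34 of these fell, 0 rose and 14 were not called; 32 of the 34 falls were called in all 8 fits that left out a library. The median log2 fold change of the 48 was -0.68; without ABA replicate 3, 33 fell, with a median of -0.64. The whole list summed to 23233, 20763, 29625 and 20964 CPM in ABA replicates 1 to 4, to 13157, 12916, 12210 and 11621 CPM with ABA plus glucose, and to 2180 to 2973 CPM in the control libraries. In bulk RNA from whole seeds, fewer cells of a type and less RNA per cell cannot be told apart. RAB18, a dehydrin and a much used marker of ABA response, read 949, 854, 1152 and 841 CPM with ABA and 314, 289, 287 and 248 CPM with ABA plus glucose. Each of its 4 libraries with both compounds lay below each ABA library, and all lay above the control libraries, whose mean was 65.4 CPM. The fall was 3.34-fold (log2 fold change -1.74 ± 0.13, approximate SE; adjusted p = 1.18e-08), and -1.63 without ABA replicate 3.

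In terms of transcript lost, the LEA genes LEA29, LEA7, AT3G17520, LEA46, ECP63 and RAB18 had the 6 largest falls in mean CPM of any called gene. LEA29 went from 2861, 2705, 3498 and 2672 CPM to 1567, 1419, 1342 and 1357 CPM (log2 fold change -1.05 ± 0.12, adjusted p = 2.95e-06). LEA7 stood at 2166, 1889, 3263 and 1848 CPM with ABA and at 1122, 1137, 1020 and 963 CPM with ABA plus glucose (-1.11 ± 0.14, adjusted p = 1.38e-05). The groups did not overlap for either gene, and ABA replicate 3 was the highest ABA library for both; without it the values were -0.95 and -0.89. AT3G17520 fell by 0.95, LEA46, also named LEA4-5, by 0.98 and ECP63 by 0.93 on the log2 scale, or ECP63 by 0.73 without ABA replicate 3. AT3G53040 fell by 1.29, or by 1.01 without ABA replicate 3, in which it read 1253 CPM against 667 to 686 CPM in the other ABA libraries. XERO2, a dehydrin of low level, went from 34.7 ± 6.8 to 14.5 ± 1.8 CPM (SD, n = 4 in each group), a log2 fold change of -1.25, or -1.15 without ABA replicate 3.

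**Figure D3:**
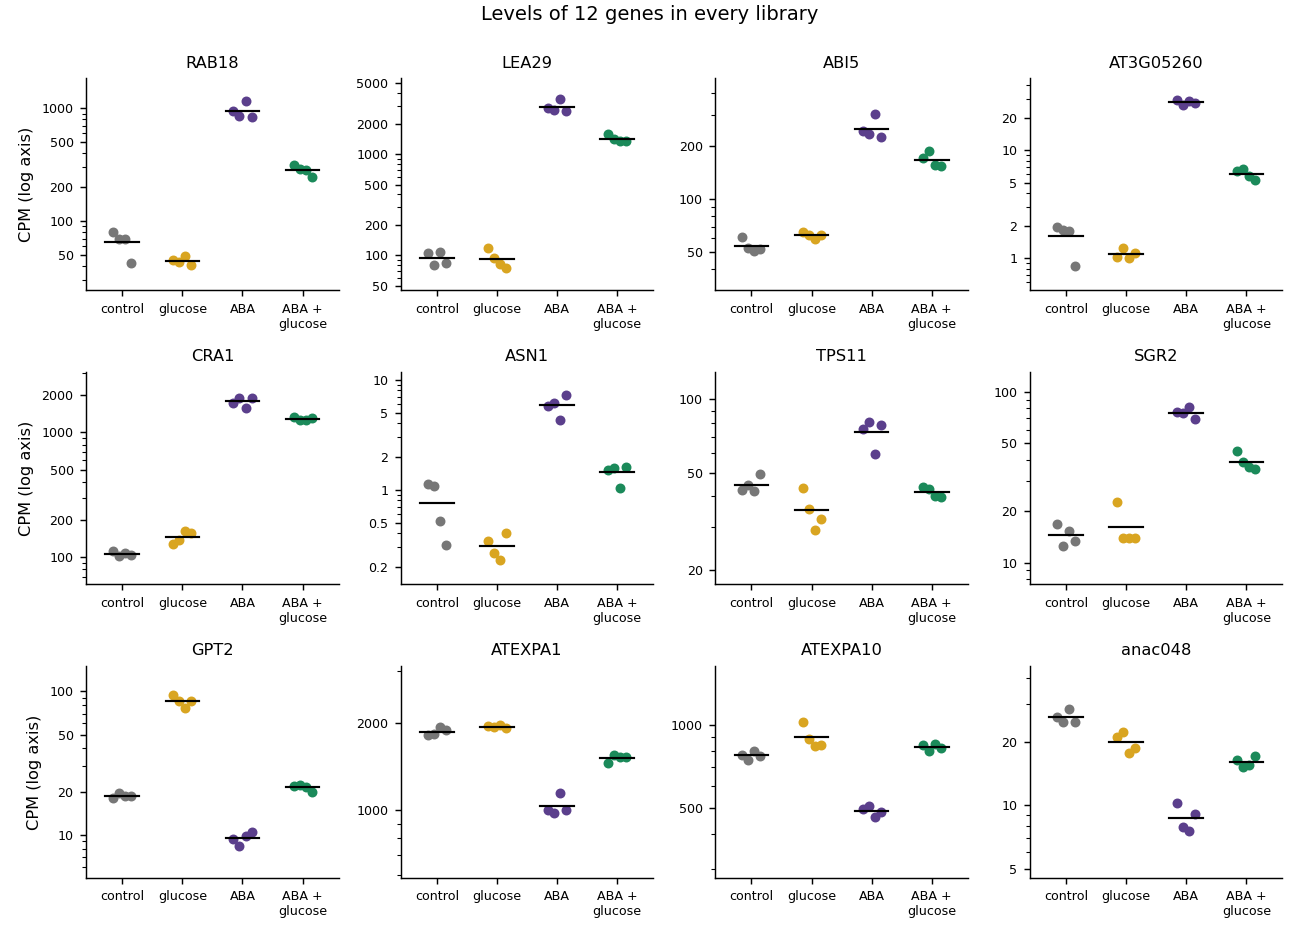
CPM on a log axis in each of the 16 libraries for 12 genes, as points for control, glucose, ABA and ABA plus glucose and a line at the group mean. The first 8 panels show genes that fell with glucose in ABA-treated seeds and the last 4 genes that rose, and in all 12 the ABA plus glucose libraries lie apart from the ABA libraries.

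Of 12 tested ABA markers outside the LEA family 7 fell and 0 rose, with a median of -0.48, and 5 of the 7 were called in each of the 8 fits; 8 fell without ABA replicate 3. ATHB-7, a homeodomain factor, fell from 10.3 ± 1.7 to 3.94 ± 0.37 CPM (-1.38 ± 0.15, adjusted p = 1.81e-06), or by 1.28 on the log2 scale without that library. RD29A fell from 243 ± 13 to 124 ± 16 CPM (-0.97, or -0.94 without it), and its neighbour LTI65, also named RD29B, from 673 ± 61 to 314 ± 46 CPM. The NADP-malic enzyme gene NADP-ME1 fell from 78.8 ± 5.2 to 51.7 ± 1.9 CPM. The control means of these 4 genes were 1.37 CPM for ATHB-7, 2.71 for RD29A, 19.3 for LTI65 and 2.12 for NADP-ME1, below the means with both compounds.

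Genes of the seed reserves moved less. Of 10 storage protein genes 2 fell, with a median of -0.13, and of 6 oleosin and caleosin genes 3 fell, or 4 without ABA replicate 3, with a median of -0.32. CRA1, a 12S globulin, read 1736, 1896, 1574 and 1874 CPM with ABA and 1326, 1251, 1253 and 1302 CPM with ABA plus glucose, with no overlap (-0.46 ± 0.071, adjusted p = 0.000154). OLEO1, which coats oil bodies, fell from 338 ± 31 to 253 ± 13 CPM. Further genes known for seed expression fell more steeply than CRA1 and OLEO1, though the lowest log2 fold change among the storage protein genes was -0.71. TIP3-2, a water channel of protein storage vacuoles, fell 2.46-fold, from 25 ± 4.2 to 10.2 ± 1.3 CPM. It was the 1 fall, beside 1 rise, among 19 aquaporin genes with a median of 0.07. Without ABA replicate 3, 0 aquaporin genes rose and 3 fell. SDH2-3, the succinate dehydrogenase subunit of embryos, fell from 85.5 ± 11 to 47.6 ± 4.6 CPM and was the 1 fall among 85 respiratory chain genes. PER1, the seed 1-Cys peroxiredoxin, fell from 234 ± 23 to 152 ± 9.6 CPM. It was the 1 call among 12 genes of catalases, superoxide dismutases and this peroxiredoxin, of which 2 fell without ABA replicate 3. In the raffinose list, with 1 rise and 2 falls of 7 tested, GOLS1 fell (-0.60 ± 0.10) and RFS1 rose (0.37 ± 0.052).

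**Figure D4:**
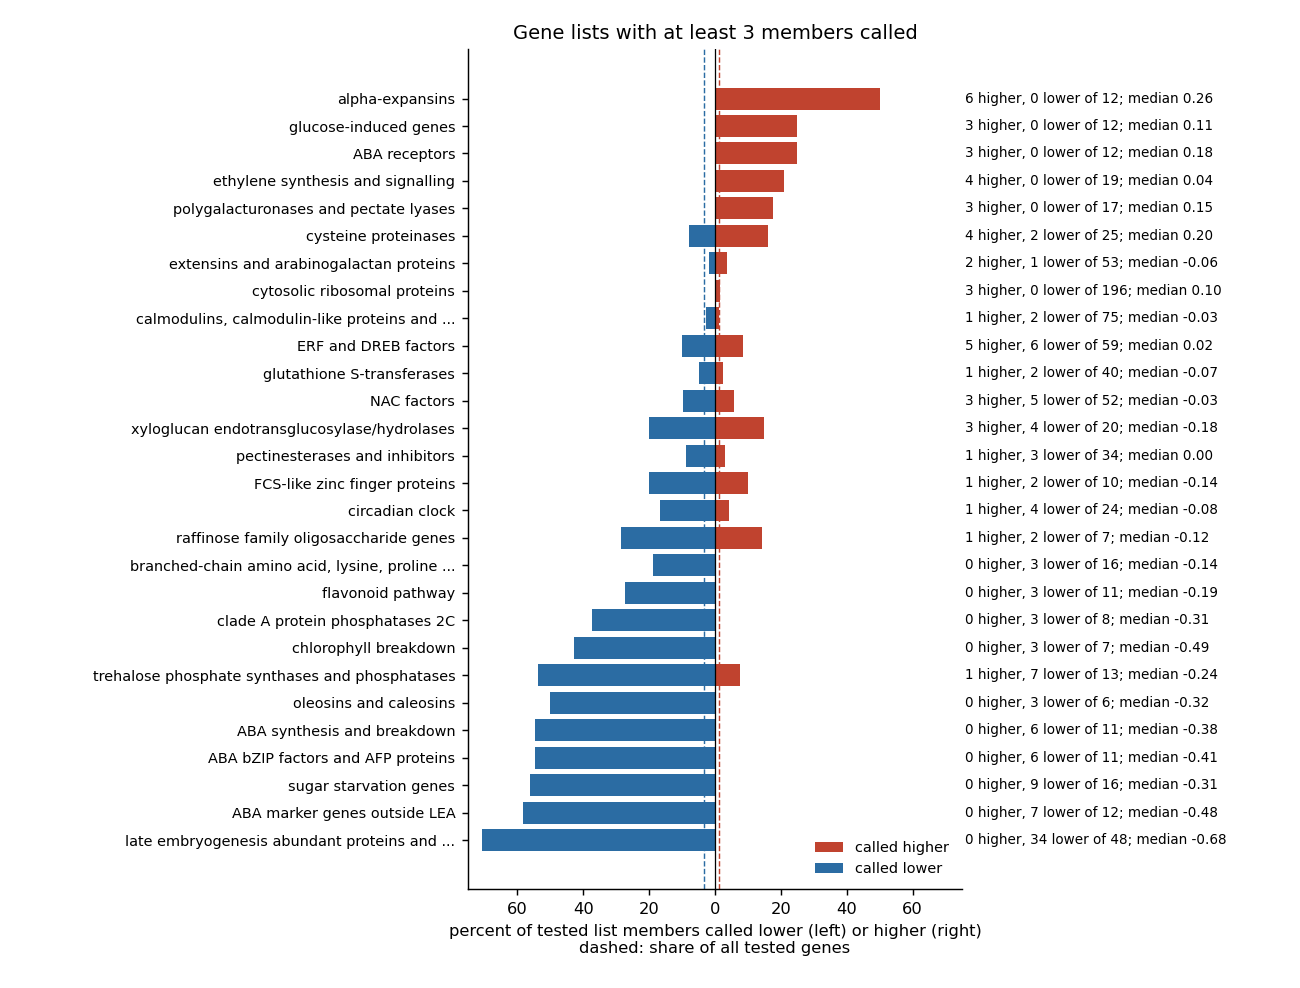
Share of each list's tested members called lower (blue, to the left) or higher (red, to the right), for the lists with at least 3 called members; dashed lines mark the shares over all genes tested, 3.24% and 1.16% with all 16 libraries in the fit. LEA genes, ABA markers, sugar starvation genes and ABA regulators extend to the left, alpha-expansins to the right.

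Genes at several steps of the ABA pathway itself were called, with unequal support. Of 12 tested PYR/PYL receptor genes 3 rose and 0 fell, with a median of 0.18. PYL6 read 15, 15, 16.7 and 11.7 CPM with ABA and 17.8, 21.7, 21.7 and 19 CPM with ABA plus glucose (0.47 ± 0.10, adjusted p = 0.00584). PYL2 (0.25 ± 0.062) and PYL8 (0.25 ± 0.066) were called with less support, since each kept its call in 2 of the 8 fits without a library, with adjusted p up to 0.097 and 0.131; without ABA replicate 3 that of PYL8 was 0.0525. Among the clade A phosphatases, which the receptors inhibit, 3 of 8 fell, or 4 without ABA replicate 3, and 0 rose, with a median of -0.31. HAI3 fell from 76.7 ± 6.2 to 47.2 ± 4.8 CPM, AIP1, also named HAI2, from 54.1 ± 1.9 to 35.6 ± 1.4 CPM, and HAB1 from 45.5 ± 2.9 to 32.1 ± 4.3 CPM. Their log2 fold changes in ABA against control, a contrast that shares the ABA libraries, were -1.67 for PYL6, 2.64 for HAI3, 2.33 for AIP1 and 1.13 for HAB1. Of 8 SnRK2 kinase genes 1 fell, and it was called in 7 of the 8 fits without a library.

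Among the bZIP factors and the AFP proteins that bind them, 6 of 11 fell and 0 rose, with a median of -0.41; 5 of the 6 were called in each of the 8 fits. ABI5, the bZIP factor of post-germination arrest, stood at 245, 236, 303 and 226 CPM with ABA and 172, 187, 156 and 155 CPM with ABA plus glucose. The groups did not overlap, and the change was -0.59 ± 0.082 (adjusted p = 5.09e-05), or -0.49 without ABA replicate 3. ABF4 fell from 20.6 ± 1.7 to 11.9 ± 0.75 CPM and AFP1 from 30.6 ± 4.4 to 16.6 ± 2.1 CPM. AFP3 fell by 0.73 ± 0.14, but was not called by limma on the authors' TPM values, where its adjusted p reached 0.0717. Of the 3 tested seed maturation regulators 0 were called, or 1 without ABA replicate 3. ABI4 depended on 1 library: 0.18 ± 0.075 with an adjusted p of 0.222, and 0.29 with an adjusted p of 0.000786 without ABA replicate 3.

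Of 11 tested genes of ABA synthesis and breakdown 6 fell and 0 rose, with a median of -0.38. NCED9, a seed form of the enzyme that commits carotenoids to ABA, went from 12.5, 13.4, 12.7 and 13 CPM to 6.06, 7.41, 5.67 and 8.17 CPM (-0.91 ± 0.12, adjusted p = 2.72e-05, and -0.91 without ABA replicate 3). ZEP, an earlier step of the same route, fell from 73.8 ± 3.5 to 50.5 ± 2.4 CPM. The ABA 8′-hydroxylases CYP707A1 and CYP707A2, which start its breakdown, fell from 51.2 ± 6.4 to 32.6 ± 3.3 and from 18.6 ± 2.5 to 10.6 ± 1.4 CPM. For all 4 genes the ABA and the ABA plus glucose libraries were separate.

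Of 16 tested sugar starvation genes, which sugar supply represses, 9 fell and 0 rose, with a median of -0.31, which moved to -0.39 and -0.41 without ABA replicate 4 and without ABA plus glucose replicate 3; 5 of the 9 were called in each of the 8 fits. ASN1, the asparagine synthetase repressed by sugar and light, read 5.77, 6.18, 4.33 and 7.29 CPM with ABA and 1.51, 1.58, 1.03 and 1.62 CPM with ABA plus glucose. This 4.12-fold fall (-2.04 ± 0.22, adjusted p = 2.05e-06) left no overlap. STR15, better known as the senescence gene SEN1, fell from 20.9 ± 4 to 10.8 ± 0.56 CPM and DRMH1, a dormancy-associated gene, from 5.23 ± 0.34 to 2.53 ± 0.34 CPM. Of 16 genes for the breakdown of branched-chain amino acids, lysine, proline and glutamate 3 fell, or 2 without ABA replicate 3, but 0 of the 3 were called in all 8 fits.

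Trehalose phosphate genes were listed after their values had been seen. Of 13 tested 7 fell and 1 rose, and 3 of the falls were called in each of the 8 fits; without ABA replicate 3, 7 fell and 0 rose. The list shares genes with others: the falls of TPS8, TPS9, TPS10 and TPS11 are also 4 of the 9 starvation falls, and the rise, TPS5, is 1 of the 3 rises among glucose-induced genes, so these are not separate counts. TPS11 fell from 75.9, 80.8, 59.4 and 78.7 CPM to 43.7, 43, 40.2 and 39.6 CPM (-0.83 ± 0.10). TPS6, which like TPS11 belongs to the class of synthase-like proteins, fell from 64 ± 5.7 to 39.2 ± 1.1 CPM, and the phosphatase gene TPPG from 14.8 ± 1.5 to 9.28 ± 1.1 CPM. FCS-like zinc finger proteins, which bind SnRK1, were also listed afterwards; FLZ3 (-0.52 ± 0.085) and FLZ15 (-0.70 ± 0.13) were the 2 falls of 10 tested, beside 1 rise. Of 16 genes of SnRK1, TOR and hexokinase 1 fell and 0 rose; that gene was called in 1 of the 8 fits, the one without ABA replicate 3.

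Among 12 tested glucose-induced genes 3 rose, or 2 without ABA replicate 3, and 0 fell, while 1.16% of all genes tested rose. Their median was small, 0.11, with 11 of the 12 above 0, and 1 of the rises was called in all 8 fits. GPT2, which carries glucose 6-phosphate into plastids, read 9.43, 8.39, 9.75 and 10.4 CPM with ABA and 21.9, 22.1, 21.6 and 20 CPM with ABA plus glucose. It rose 2.24-fold (1.17 ± 0.086, adjusted p = 1.18e-08), with the 4 higher libraries close together. NIA2, a nitrate reductase, rose from 50.1 ± 5.1 to 63.5 ± 4.6 CPM (0.34 ± 0.078), but lost its call without ABA replicate 1 or without ABA plus glucose replicate 4, with adjusted p up to 0.0622. BZIP44, of the sugar-responsive S1 group, rose by 0.45 ± 0.093 and was the 1 gene called among 9 C and S1 bZIP factors, with overlapping libraries. The beta-amylase gene BAM1 (AT3G23920) fell from 143 ± 7.5 to 104 ± 6.2 CPM and was the 1 gene called among 35 of starch metabolism, of which 2 fell without ABA replicate 3.

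Of 12 tested alpha-expansins, which loosen walls during cell expansion, 6 rose and 0 fell, with a median of 0.26, and 4 of the 6 were called in each of the 8 fits. Summed, the expansin list stood at 3195 to 3460 CPM with ABA, 4464 to 4655 CPM with ABA plus glucose and 4755 to 5297 CPM in the control libraries. ATEXPA1 read 999, 977, 1143 and 999 CPM with ABA and 1456, 1554, 1527 and 1526 CPM with ABA plus glucose (0.56 ± 0.054, adjusted p = 5.31e-07). ATEXPA10 read 494, 505, 464 and 483 CPM against 843, 800, 852 and 826 CPM (0.77 ± 0.061, adjusted p = 2.72e-08). In both, every library with the 2 compounds lay above every ABA library. EXPA9 rose from 396 ± 45 to 563 ± 29 CPM and EXPA15 from 77.1 ± 3.7 to 116 ± 6.4 CPM.

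Other wall families split. Of 20 xyloglucan endotransglucosylase/hydrolases, which cut and rejoin wall glucans, 3 rose and 4 fell, or 5 without ABA replicate 3. XTH31 rose from 144 ± 19 to 257 ± 24 CPM (0.83 ± 0.10, adjusted p = 7.55e-06), while XTH23 fell from 5.8 ± 0.32 to 2.79 ± 0.81 CPM (-1.09 ± 0.15). Of 15 class III peroxidases 2 fell, PER62 (-0.63 ± 0.10) and PER69 (-0.55 ± 0.12), and 0 rose. Among 45 GDSL esterases the 1 gene called was AT4G26790, which rose from 14 ± 0.79 to 22.3 ± 1.6 CPM. Polygalacturonases and pectate lyases had 3 rises of 17 and pectinesterases 1 rise and 3 falls of 34; 0 of these 7 calls held in all 8 fits, and without ABA replicate 3 the counts were 2 rises, and 0 rises and 2 falls.

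Protein-degrading enzymes moved in both directions. Of 25 cysteine proteinase genes 4 rose and 2 fell. RD19D, abundant in ABA-treated seeds, fell from 464 ± 15 to 348 ± 12 CPM, while RD19A rose from 175 ± 23 to 223 ± 11 CPM and AT1G29080 from 27.9 ± 4.4 to 41.8 ± 4.4 CPM; RD19A had an adjusted p of 0.0514 with the 8 libraries alone in the fit. CP1 had one of the 6 largest rises in mean CPM, from 1925 ± 292 to 2382 ± 103 CPM, but the libraries overlapped, because ABA replicate 3 read 2343 CPM against 1713 to 1907 CPM in the other ABA libraries. Its change was 0.31 ± 0.08 (adjusted p = 0.0254) with all libraries and 0.42 without that one, and it kept its call in 2 of the 8 fits, with adjusted p up to 0.106 in the others. SCPL20, a serine carboxypeptidase-like gene, rose from 503 ± 47 to 693 ± 41 CPM.

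Of other hormones, ethylene genes showed 4 rises and 0 falls among 19 tested. The receptors ETR2 and ERS1 rose from 37.3 ± 1.6 to 47.8 ± 2.7 and from 50.2 ± 1.8 to 61.6 ± 1.1 CPM, and the ethylene-forming oxidase ACO1 (AT2G19590) from 137 ± 10 to 176 ± 8.2 CPM. Of 26 gibberellin genes 1 rose, GASA6 (0.40 ± 0.086), and 1 fell, GASA1 (-0.86 ± 0.18); both encode small peptides induced by gibberellin; without ABA replicate 3, 2 rose and 3 fell. Auxin genes showed 0 rises and 1 fall of 52 tested, or 1 rise and 0 falls without that library. With 1.16% of all genes tested rising and 3.24% falling, the gibberellin and auxin counts are not read as results about these families.

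Of 59 ERF and DREB transcription factors 6 fell and 5 rose, with a median of 0.02. DREB2D fell from 21 ± 1.8 to 11.8 ± 1.5 CPM, DREB2G from 58.7 ± 4.4 to 38.4 ± 0.68 CPM and DREB2B from 15.2 ± 2.2 to 9.34 ± 1.3 CPM. ERF034 rose 2.01-fold, from 2.06, 1.94, 1.3 and 1.8 CPM to 3.56, 3.23, 4.05 and 3.78 CPM. Of 52 NAC factors 3 rose and 5 fell: anac048 rose from 10.3, 7.93, 7.58 and 9.1 CPM to 16.4, 15.1, 15.5 and 17 CPM (0.85 ± 0.10, adjusted p = 9.95e-06), and ANAC102 (-0.41 ± 0.095) and NAC032 (-0.41 ± 0.091) fell. Without ABA replicate 3, 4 NAC genes rose and 4 fell. The libraries of NAC032 overlapped, and with the 8 libraries alone in the fit its adjusted p was 0.0576. MYB73 (-0.44 ± 0.093) and WRKY22 (-0.45 ± 0.11) were the 1 call each among 35 MYB and 32 WRKY factors. Of 24 clock genes 4 fell and 1 rose, or 0 rose without ABA replicate 3, with RVE2 down from 61.1 ± 6.9 to 40.5 ± 4.2 CPM and PRR3 from 22.9 ± 1.3 to 17.5 ± 1.5 CPM.

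Genes linked to chlorophyll breakdown, listed after their values had been seen, had 3 falls and 0 rises among 7 tested, and all 3 were called in each of the 8 fits. Without ABA replicate 3, 4 fell. The list does not separate genes that promote breakdown from genes that hold it back, so its falls give no direction for the process. SGR2 (AT4G11910, STAY-GREEN 2) fell from 76, 74.9, 81.4 and 69.1 CPM to 45.3, 38.8, 36.4 and 35.4 CPM (-0.95 ± 0.11, adjusted p = 6.62e-06). SGR1, the magnesium-dechelating enzyme of the same family, fell from 60 ± 5.8 to 41.5 ± 2.7 CPM, and NYC1, a chlorophyll b reductase, from 61.8 ± 2.9 to 41.3 ± 1.8 CPM. Of 35 nuclear photosystem genes the 1 call was PSBO2, which fell (-0.55 ± 0.13). The 77 tested plastid-encoded genes had a median of 0.21, with 66 of them above 0, but only 2 rose, or 0 without ABA replicate 3, and those 2 share their reads.

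The machinery of protein synthesis moved little. The 196 cytosolic ribosomal protein genes had a median of 0.10, or 0.05 without ABA replicate 3, with 172 of them above 0; 3 rose, or 2 without that library, and 0 fell. RPSAb, the one of these called in all 8 fits, rose from 42.5 ± 1.5 to 54.5 ± 3.6 CPM. Of 40 glutathione transferases 1 rose and 2 fell, or 2 and 1 without ABA replicate 3, with GSTU5 among the falls (-0.44 ± 0.10). Over all genes tested 1.16% rose and 3.24% fell, so counts this low are not read as a result about the family. Chalcone isomerase CHI1 fell from 15.2 ± 1.3 to 9.58 ± 1.1 CPM, 1 of 3 falls among 11 flavonoid genes, or of 4 falls without ABA replicate 3. AT1G08170, a histone H2B gene, fell from 13.2 ± 1.7 to 5.63 ± 1.4 CPM, but its adjusted p was 0.0875 by limma on TPM with a pseudocount of 0.1. It was 1 of 2 falls among 42 histone genes, or of 4 falls without ABA replicate 3.

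In 14 of the 69 lists 0 members were called in this test, and without ABA replicate 3, 7 of these had 1 call each. Over all genes tested 4.4% were called, so a short list would often have 0 calls at that share. The SWEET list had 2 tested members and the endosperm list 3. They cover SWEET transporters, sucrose carriers and invertases, the glyoxylate cycle, beta-oxidation, oil synthesis, ribosome biogenesis, the proteasome, cytokinin response regulators, PIF-type factors, DNA replication, tubulins, seed maturation regulators and the endosperm and greening markers. Their medians lay between -0.16 and 0.19, and a missed threshold does not show that these genes were equal in the 2 groups.

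The steepest fall among called genes whose 8 libraries all exceeded 3 counts and whose groups did not overlap was that of AT3G05260, annotated as a glucose and ribitol dehydrogenase homolog. It read 28.9, 26.3, 28.8 and 27.2 CPM with ABA and 6.41, 6.78, 5.81 and 5.33 CPM with ABA plus glucose, 4.59-fold lower with no overlap (-2.20 ± 0.10, adjusted p = 8.29e-12). Its control mean was 1.6 CPM. AT3G16120, a dynein light chain gene, fell from 4.82 ± 1.8 to 1.11 ± 0.28 CPM (-2.12, or -1.90 without ABA replicate 3) and AT5G26010, a probable protein phosphatase 2C outside clade A, from 2.38 ± 0.23 to 0.644 ± 0.17 CPM. AT4G25580, with no function in its annotation, fell from 201 ± 17 to 63.9 ± 6.7 CPM, AT5G45310 from 28.9 ± 3.3 to 9.34 ± 2.4 CPM, and AT1G54860, annotated as a membrane-anchored glycoprotein, from 18 ± 1.7 to 6.16 ± 0.86 CPM. The cytochrome P450 gene CYP81D11 fell from 21.8 ± 3.5 to 7.59 ± 0.49 CPM. ATL79 fell from 5.13 ± 0.77 to 1.79 ± 0.72 CPM, CCL, a light-regulated chloroplast protein gene, from 3.5 ± 1 to 1.21 ± 0.34 CPM (-1.53, or -1.39 without ABA replicate 3), and the glycosyltransferase gene UGT85A5 from 7.2 ± 0.86 to 2.66 ± 1.1 CPM. By the same count minimum and without overlap of the groups, the steepest rise was that of AT1G25150, annotated as an F-box protein gene, which read 1.71, 2.21, 0.975 and 0.627 CPM with ABA and 3.74, 4.34, 5.15 and 2.9 CPM with ABA plus glucose. The groups did not overlap, but its change (1.51 ± 0.41, adjusted p = 0.0328) was called in 3 of the 8 fits and not by DESeq2 or limma, with adjusted p up to 0.123, and its counts have decimals in 15 of the 16 libraries. AT3G22540 went from 1.58 ± 0.26 to 3.77 ± 0.55 CPM and the kinase gene MAPKKK20 from 12.1 ± 0.68 to 20.5 ± 1.8 CPM. AT4G20320, a CTP synthase gene, rose from 5.23 ± 0.68 to 8.75 ± 0.4 CPM, and ATOBGM (AT1G07620), a GTP-binding protein gene, from 3.07 ± 0.63 to 5.17 ± 0.55 CPM. AT3G01345 (0.70 ± 0.17) and the pectate lyase gene AT4G13710 (0.69 ± 0.18) also rose, each called in 3 of the 8 fits, with adjusted p up to 0.0697 and 0.103; without ABA replicate 3 the call for AT4G13710 was lost, at 0.0503. The desaturase gene S-ACP-DES6 rose from 762 ± 28 to 969 ± 32 CPM. Of the 102 genes given with values 19 overlap a gene on the opposite strand, RAB18, LEA7, ASN1 and AT3G05260 among them, and 15 have estimated counts with decimals, ATEXPA1 and TPS6 among them, so their reads may be shared with another gene.

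Whether glucose acted differently with ABA than without it was tested as the interaction, the glucose effect with ABA minus that without. The glucose effect without ABA comes from the other 8 libraries. The interaction was called for 904 of 17083 genes (5.29%), for 192 of the 553 falls and for 80 of the 198 rises. The falls and rises were chosen by the glucose effect with ABA, which is also 1 term of the interaction. Their counts and the sizes of their interactions may therefore be raised by the choice. In glucose against control, 144 of the 553 genes also fell, 26 rose and 383 were not called; of the 198 genes 25 rose, 25 fell and 148 were not called. LEA29 and ABI5 fell with ABA present but stood at -0.04 ± 0.12 and 0.20 ± 0.089 without it, with interactions of -1.01 ± 0.17 (adjusted p = 0.00081) and -0.79 ± 0.12 (adjusted p = 0.000386). AT3G05260 had an interaction of -1.61 ± 0.27 and NCED9 one of -1.14 ± 0.19. Of the 48 LEA genes tested, 21 had a called interaction, all negative. This was not particular to LEA genes: 31 of the 77 plastid-encoded genes had a called interaction, all positive, and 5 of the 12 glucose-induced genes, all negative.

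Some genes moved in opposite directions. CRA1 rose with glucose alone (0.45 ± 0.074, adjusted p = 0.000289) and fell with glucose in the presence of ABA (-0.46), an interaction of -0.92 ± 0.10. RD19D did likewise, with 0.34 ± 0.065 and -0.42. The reverse held for anac048, which fell with glucose alone (-0.39 ± 0.09) and rose with ABA present (0.85), an interaction of 1.24 ± 0.14. PYL6, RD19A and AT1G29080 also fell without ABA (-0.43, -0.32 and -0.54) and rose with it. GPT2 and NIA2 rose in both settings but less with ABA: 1.17 against 2.18 for GPT2 (interaction -1.02 ± 0.11) and 0.34 against 1.21 for NIA2 (-0.87 ± 0.11). Other falls had no called interaction, as for STR15 (-0.95 with ABA, -0.93 without, difference -0.02 ± 0.17), TIP3-2 (-1.30 and -1.25, difference -0.05 ± 0.41), AT1G54860 (-1.56 and -1.60, difference 0.04 ± 0.26) and BAM1 (-0.46 and -0.39, difference -0.07 ± 0.092). ASN1 fell by 2.04 with ABA and stood at -1.33 ± 0.45 without it, where its adjusted p was 0.0572.

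**Figure D5:**
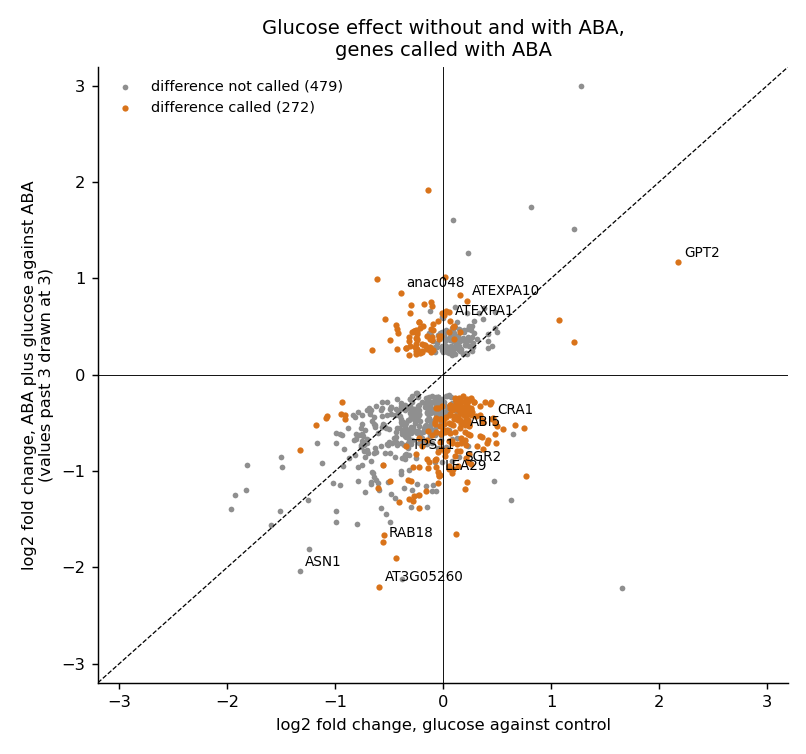
Log2 fold change of glucose without ABA (horizontal axis) and with ABA (vertical axis) for the 751 genes called with ABA; the 2 axes share no library, values past 3 are drawn at 3, and the dashed line marks equal effects. Orange points, 80 rises and 192 falls, have a called difference; GPT2 lies below the dashed line, anac048 in the upper left and CRA1 in the lower right.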

How the data were processed

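RNA sequencing of whole wild-type seeds gave 16 libraries, 4 in each of 4 groups taken from the sample labels. Per the submitters' processing notes, reads were handled with Trimmomatic 0.38, kallisto 0.44.0 and sleuth; the genome build, annotation and strand setting are not given in the sources used here. The authors deposited a table of estimated counts for 27655 genes, of which 4057 have values with decimals, and 1 column of TPM signal per library, summing to 945626 to 1037285; any scaling behind these sums is not stated in the headers. Another 16 columns, which carry the names of samples not described here, were left aside. Gene names, overlaps and promoters came from RefSeq's TAIR10.1, which matched 27445 genes.

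Estimated counts were rounded and tested in R 4.3.3 by the quasi-likelihood method of edgeR 4.0.16: TMM scaling, filterByExpr with a minimum count of 10 (10572 genes removed), 4 group means over all 16 libraries, Benjamini-Hochberg adjustment over the 17083 genes tested, and a threshold of 0.05. Standard errors are approximate, obtained from each log2 fold change and its F statistic. The coefficient of biological variation was 7.88%, and replicates correlated at 0.9795 to 0.9931 across genes. Between replicates the chi-square divided by the number of genes was at least 1.79, so no library was counted as a duplicate. The procedure was tested on simulated data. Same-numbered ABA and ABA plus glucose libraries did not deviate together, so numbers were not used as pairs. The labels name no sequencing batch or date.

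Genes are named by a rule: the 12 largest rises and falls without overlap and with more than 3 counts in each of the 8 libraries, the 6 largest in CPM, and up to 4 called members of each of 69 lists, or the lowest p where none was called. Of 166 genes so named, 102 are given with values. The other 64, all list members and many with calls that another setting lost, were set aside after their values had been seen and enter by count only, so the genes given have steadier calls than the rule's full set. The comparison, the lists and the rule were chosen with earlier results of these data known, and 3 lists (trehalose phosphate, chlorophyll breakdown, FCS-like zinc fingers) after the values here. Lists are described by counts and medians and were not tested as sets. The alternatives tried were other scalings, filters and fits, DESeq2, limma on log2 of TPM plus 0.5 or 0.1, offsets for length and GC content, and each library left out.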

Additional observations from a re-analysis of the deposited data

Results flagged for a closer look

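The test of the difference between the glucose effect with ABA and without it, the interaction on the log2 scale, was called for 48 of the 102 genes given with values. For these the 2 effects differed beyond the spread between libraries in the main fit, but 12 of the 48 lost their call under at least 1 alternative. They were AT3G53040, AT5G26010, ATHB-7, ATOBGM (AT1G07620), DREB2G, EXPA9, GASA6, GOLS1, LTI65, PER1, RD29A and RFS1, with an adjusted p of up to 0.496 for GASA6. Nearly all of the 102 genes were named for a called glucose effect with ABA, 1 of the 2 effects compared. The count of 48 and the sizes below may be raised by that choice. A negative value means that the glucose effect was more negative with ABA than without it: a steeper fall or a fall in place of no called change or a rise for most of these genes, and a smaller rise for GPT2 and NIA2. Negative values were found in the ABA pathway for AIP1 (-0.71), HAB1 (-0.58), ABF4 (-0.82), ABI5 (-0.79), NCED9 (-1.14) and ZEP (-0.71). Among the LEA genes they were found for RAB18 (-1.18), LEA29 (-1.01), LEA7 (-1.33), AT3G17520 (-0.99), LEA46 (-1.03), ECP63 (-1.19) and AT3G53040 (-0.97). Other genes of ABA response and of seeds with negative values were ATHB-7 (-1.16), LTI65 (-0.61), RD29A (-0.82), CRA1 (-0.92), GOLS1 (-0.53), PER1 (-0.52) and SDH2-3 (-0.95). GPT2 (-1.02), NIA2 (-0.87), TPS6 (-0.79), RD19D (-0.75), SGR2 (AT4G11910, -1.10), NYC1 (-0.44) and DREB2G (-0.60) were further negative values. The genes outside the lists gave -1.61 for AT3G05260, -1.46 for AT5G26010, -1.10 for AT4G25580 and -1.77 for AT5G45310. Positive values, a glucose effect more positive with ABA than without it, were found for the wall genes ATEXPA1 (0.50), ATEXPA10 (0.56), EXPA9 (0.40) and XTH31 (0.67), and for the proteinases CP1 (0.48), RD19A (0.67) and AT1G29080 (1.12). They were also found for PYL6 (0.89), RFS1 (0.28), AT4G26790 (0.63), GASA6 (0.42), anac048 (1.24), ERF034 (0.99), RPSAb (0.46), MAPKKK20 (0.87), AT4G20320 (0.92) and ATOBGM (AT1G07620, 0.82).

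In 8 of 204 groups of 4 examined, 1 library lay far from the other 3. For genes taken without choice, chance gives this in about 1 of 20 groups, or 10.2 of 204. These genes were named for called changes, mostly without overlap, and share the same libraries, so the count cannot be set against that number. ABA replicate 3 was the library in 5 of the 8 groups: it was the highest for ECP63 (1811 CPM), AT3G53040 (1253 CPM), ATEXPA1 (1143 CPM) and AT4G25580 (226 CPM), and the lowest for SGR1 (51.3 CPM). ABA replicate 1 was the highest for ANAC102 (70.7 CPM), ABA replicate 2 the lowest for MAPKKK20 (11.1 CPM) and ABA plus glucose replicate 2 the highest for ATHB-7 (4.49 CPM).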

How the results depend on the processing

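The number of genes that rose depended on the fit more than the number that fell. With the 8 libraries alone in the fit 99 genes rose, with offsets for length and GC content 309, and with each of the 8 libraries left out in turn 107 to 243, against 198 with all libraries. Under the other alternatives, among them DESeq2 and limma on TPM, rises, falls and 2-fold changes stayed within 1.5 times of their counts, and falls ranged from 385 to 628 with a library left out. Rises and falls were 259 and 488 with upper-quartile scaling and 309 and 596 with the length and GC offsets, against 198 and 553. With the replicate number as a block, the replicate block fit gave 195 rises, 543 falls and 74 changes of 2-fold; same-numbered libraries correlated at 0.102, -0.155, -0.039 and 0.0745 in their deviations from the group means, so the samples share only a number. No value reversed. Of 2038 gene values under the alternatives 1985 kept their side of the threshold and 52, in 11 genes, lost their call; of 767 interactions 61 lost it, in 12 of 48 genes, AT5G26010, GOLS1 and GASA6 among them. Of 1379 list medians 9 moved by more than the spread, and 13 of 24 promoter shares moved with the shorter window. The cause was not tested.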
